A study of Mus musculus with 6 samples.

Results

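The genes Tcf21, Tbx2, Tbx3, Tbx4, Tbx5, Foxf1 and Foxf2 encode transcription factors that mark lung mesenchyme, and 25 open chromatin regions were assigned to these 7 genes. A region counted when a deposited table named 1 of the 7 as its gene and placed it no more than 100 kb from that gene's transcription start site (TSS). The table of plastic against 32 kPa held 64217 regions in all, of which these were 25. The table of 32 kPa against 0.2 kPa held 2121 and that of plastic against 0.2 kPa held 2114, and neither held a region of the 7 genes. Cells were GFP-positive fibroblasts sorted from lungs of Col1a1-GFP transgenic mice, a genotype shared by all groups. Cells without the reporter were thus not selected, and no purity of the sort is given here. The sorted cells were grown for 8 days on collagen I over tissue-culture plastic, 32 kPa silicone (PDMS) or 0.2 kPa PDMS. Each culture had 2 libraries of 50000 cells. Omni-ATAC-seq, which reads accessible DNA from where a transposase inserts adapters, was used to compare open chromatin between soft and stiff surfaces. Animal age and strain, and whether paired libraries derive from different animals, are not given in the sources used here. The authors' p-values may therefore measure technical spread only.

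Each region has 1 level for each culture, which is the authors' mean of its libraries in log2 normalised reads, and a fold is the difference between a pair of such means. The tables hold 1 mean per culture and no value per library, so no spread between libraries can be given and depth is unknown. A smaller share of cells with an open region and a smaller opening in each cell cannot be told apart in such bulk values. All regions of the table spanned levels of -0.2 to 13.8 on plastic and -0.16 to 13.84 on 32 kPa. Of 10 fibroblast marker genes, 9 had a region within 1 kb of the TSS, against 2 of 8 endothelial, 0 of 8 epithelial, 1 of 7 leukocyte, 2 of 6 smooth muscle and pericyte and 1 of 5 mesothelial genes. Among all genes with a region within 100 kb, 66.1% had a region within 1 kb. The epithelial genes Epcam and Cdh1, the leukocyte gene Ptprc and the endothelial genes Pecam1 and Cdh5 had none. Those outside the fibroblast list that had one were Kdr, Tek, Lyz2, Kcnj8, Myh11 and Krt19. Within 100 kb a region was named for 10 of 10 fibroblast, 8 of 8 endothelial, 7 of 8 epithelial and 4 of 7 leukocyte genes. The same held for 6 of 6 smooth muscle and pericyte and 5 of 5 mesothelial genes.

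During lung development, Hedgehog protein from the epithelium acts on the surrounding mesenchyme and induces the forkhead factor Foxf1, while T-box factors of the mesenchyme help to drive branching through growth factors such as Fgf10. Tcf21 is a basic helix-loop-helix factor of fibroblast progenitors in lung, heart and kidney, and in the lung it marks the lineage of lipid-bearing alveolar fibroblasts. Tbx2 and Tbx4 are neighbours on 1 chromosome and Tbx3 and Tbx5 on another, and Tbx2 and Tbx3 act mainly as repressors while Tbx4 and Tbx5 act mainly as activators.

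Promoter sequence was at hand for 3 of the 7 genes, and the 2 that held an open region in these cells are shown because the open DNA at their starts differs in make-up. The sequences are the 250 bases before each start in RefSeq (build GRCm38.p6, the assembly that mm10 names), 5′ to 3′ on the gene's strand, with CpG dinucleotides in capitals. The Tcf21 stretch is chr10:22820144-22820393 on the minus strand and the Foxf2 stretch is chr13:31625566-31625815 on the plus strand.
Tcf21: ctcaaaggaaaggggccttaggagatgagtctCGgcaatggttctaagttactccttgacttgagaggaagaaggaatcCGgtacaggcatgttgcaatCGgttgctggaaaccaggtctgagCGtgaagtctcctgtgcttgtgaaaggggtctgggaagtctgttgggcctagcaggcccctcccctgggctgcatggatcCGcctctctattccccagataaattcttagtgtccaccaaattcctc
Foxf2: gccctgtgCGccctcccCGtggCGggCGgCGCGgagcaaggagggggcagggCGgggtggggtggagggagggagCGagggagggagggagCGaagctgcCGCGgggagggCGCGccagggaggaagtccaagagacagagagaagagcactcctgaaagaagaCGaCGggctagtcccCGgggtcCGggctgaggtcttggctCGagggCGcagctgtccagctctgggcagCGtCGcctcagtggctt

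The Foxf2 stretch had 21 CpG and 71.6% G or C, and the Tcf21 stretch had 5 CpG and 52.4%. Over 32851 RefSeq promoters the median was 6 CpG and 52.4% G or C, so Tcf21 lay near the middle and Foxf2 had more CpG than 83.7% of promoters. The open region at Foxf2 covered all 250 bases, and that at Tcf21 covered the 166 nearest the start. Each stretch was searched on both strands for 8 motifs. These were CAGCTG (an E-box of the kind that basic helix-loop-helix factors bind), TCACACC (a T-box element), TGTTTAC (forkhead), GGAATG (TEAD), TGAGTCA (AP-1), GGGCGG (the GC box of SP and KLF factors), CCAAT and TATAAA. Foxf2 held CAGCTG at 38 to 33 bases before the start, a motif in 13% of promoters, and GGGCGG at 227 to 222 and at 201 to 196 bases before it, a motif in 32.7%. The Tcf21 stretch held none of the 8, of which TCACACC occurs in 3.33% of promoters, TGTTTAC in 3.17%, GGAATG in 12.6%, TGAGTCA in 4.46%, CCAAT in 33.8% and TATAAA in 12.4%. The Tbx4 stretch, also in the RefSeq table, overlapped no open region. It held CAGCTG at 243 to 238, TATAAA at 85 to 80 and GGGCGG at 24 to 19 bases before the start. A link between motifs and openness was not tested.

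Regions named for the 7 genes were spread unevenly around their start sites. These counts follow the nearest start site, and 18 further regions within 100 kb by coordinate carried other names. Tcf21 and Tbx5 had 6 regions each, Tbx2 had 5, Tbx4 had 3, Foxf1 and Foxf2 had 2 each and Tbx3 had 1. Across 17919 genes with a region within 100 kb the median was 2 (interquartile range 1 to 4), and 13.2% of genes had at least 6. Tcf21, Tbx2, Tbx3, Foxf1 and Foxf2 had a region within 1 kb of the TSS, as had 66.1% of those genes. Tbx4 and Tbx5 had none, and their nearest regions lay 28.9 kb and 10.5 kb downstream of the TSS. No region in the table means only that none was kept there, not that the chromatin was closed. By annotation, 15 of the 25 regions were intergenic (60%), 4 were intronic, all of them in Tbx5 (16%), and 6 were promoters (24%). Of all regions within 100 kb of their gene's TSS, 33.3% were intergenic, 37.7% intronic and 23.3% promoters, so the promoter share was near that of the rest.

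**Figure D1:**
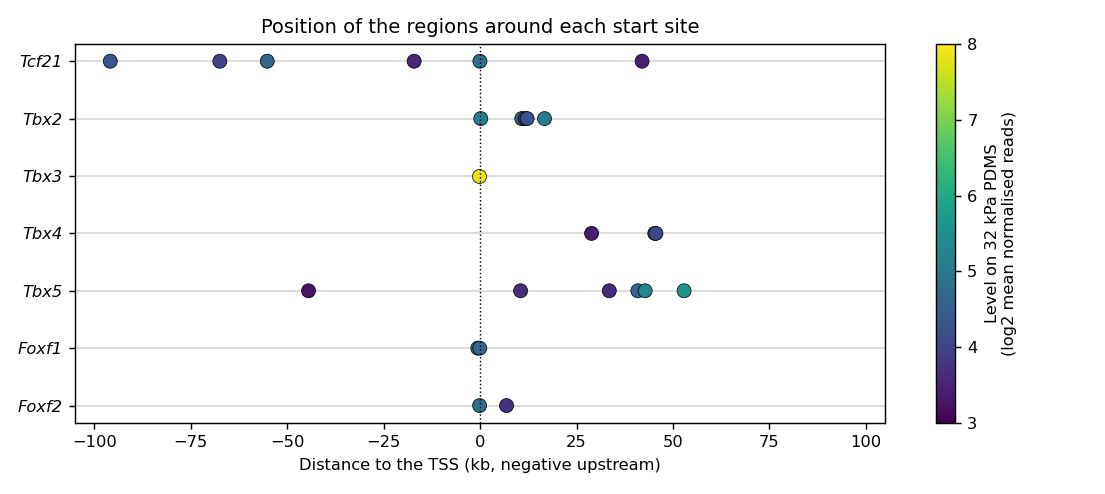
Each point is 1 of the 25 regions, placed by its signed distance to the TSS in kb (x axis, negative upstream) in the row of its gene, and coloured by its level on 32 kPa PDMS in log2 mean normalised reads. Regions of Tbx4 lie 28.9 to 45.6 kb downstream of the start, and the only Tbx3 region, the strongest of the 25 at 7.82, lies at the start.

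Between plastic and 32 kPa PDMS, no region of the 7 genes passed the authors' test. Levels had a median of 4.41 on plastic and 4.36 on 32 kPa, against 4.24 on plastic and 4.17 on 32 kPa over all 64217 regions. Of the 25, 0 passed an FDR of 0.05 in the authors' deposited table, as did 0 of all regions (0%). The lowest unadjusted p among the 25 was 0.176 in the authors' deposited table, so 0 were under 0.05, against 370 of all regions (0.576%). The submitters' notes name DiffBind, and no other tool could be run on means. The median fold, plastic minus 32 kPa, was -0.06 over the 25 regions (interquartile range -0.32 to 0.22) and 0.05 over all regions (-0.19 to 0.33) in the authors' deposited table. The level was higher on plastic at 12 of the 25 and at 55% of all regions.

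**Figure D2:**
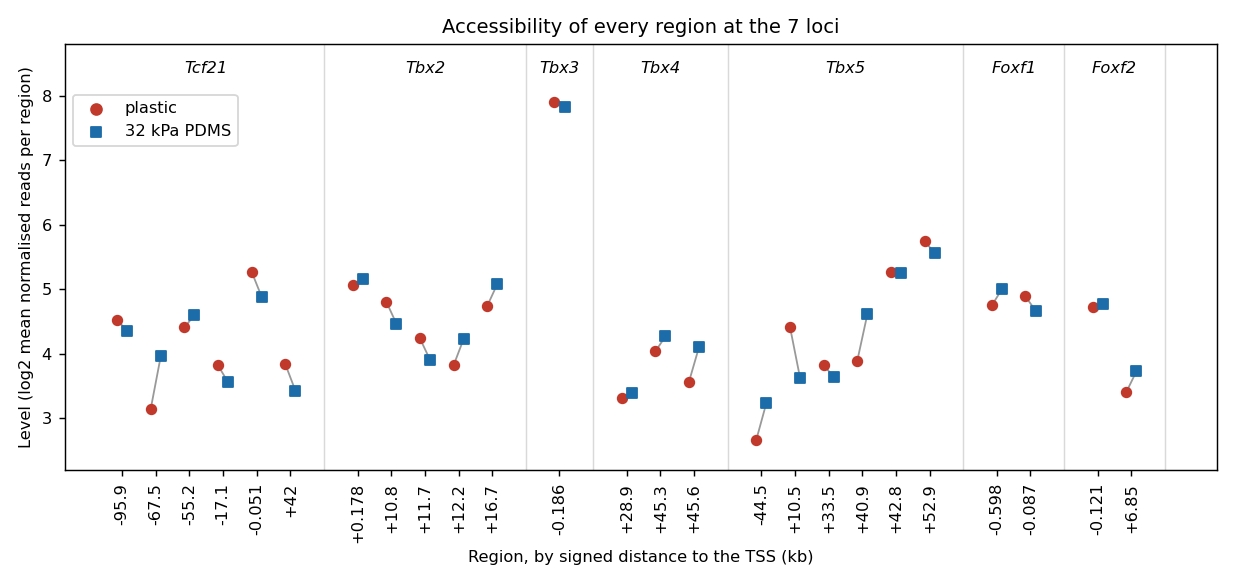
Levels in log2 mean normalised reads per region (y axis) on plastic (circles) and on 32 kPa PDMS (squares) for each of the 25 regions, ordered within each gene by signed distance to the TSS in kb (x axis); each symbol is the authors' mean of 2 libraries, with no error bar because no value per library was in the tables. Most pairs lie close together, and the Tbx3 promoter stands above the rest at 7.90 on plastic and 7.82 on 32 kPa.

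At Tcf21 (Entrez 21412, chromosome 10) the promoter region (chr10:22820080-22820309, 51 bp upstream of the TSS) had a level of 5.27 on plastic and 4.88 on 32 kPa. The fold of 0.39 (p = 0.39 in the authors' deposited table) was the widest gap among promoter regions of the 7 genes and passed no threshold. Upstream, the regions at 95.9, 67.5, 55.2 and 17.1 kb had levels of 4.52, 3.15, 4.41 and 3.82 on plastic, and of 4.36, 3.97, 4.60 and 3.56 on 32 kPa. A region 42.0 kb downstream had 3.84 on plastic and 3.43 on 32 kPa. Thus 4 of the 6 were higher on plastic and 2 were lower. The region 67.5 kb upstream (chr10:22887520-22887730), which overlaps a LINE element of the L2 family, had the most negative fold of the 25, at -0.82 (p = 0.248 in the authors' deposited table).

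The distance limit cut the Tcf21 and Tbx5 loci. Just inside it lay the Tcf21 region 95.9 kb upstream, and just outside lay a Tbx5 region 124 kb downstream of the TSS, with levels of 3.41 on plastic and 3.24 on 32 kPa. Of the 5 regions named for these genes beyond 100 kb, 3 lay 184 to 257 kb upstream of Tcf21.

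Tbx2 (Entrez 21385) and Tbx4 (Entrez 21387) start 64.2 kb apart on chromosome 11. The Tbx2 promoter region (chr11:85832650-85832936, 178 bp inside the gene) had a level of 5.06 on plastic and 5.16 on 32 kPa, a fold of -0.11 (p = 0.768 in the authors' deposited table). The annotation also placed this region in the promoter of the noncoding RNA gene 2610027K06Rik, so openness there cannot be given to either gene alone. A group of 4 regions followed 10.8 to 16.7 kb downstream of the Tbx2 start, in the intergenic stretch towards Tbx4. Their levels in order of distance were 4.81, 4.24, 3.82 and 4.74 on plastic, and 4.47, 3.91, 4.23 and 5.08 on 32 kPa. The nearer pair was higher on plastic and the farther pair lower, and p ran from 0.421 to 0.569 in the authors' deposited table. The region at 11.7 kb lay in a CpG island by the detailed annotation.

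All 3 Tbx4 regions lay past the gene's 3′ end and were lower on plastic. At 28.9, 45.3 and 45.6 kb from the start the levels were 3.32, 4.04 and 3.57 on plastic, and 3.40, 4.27 and 4.11 on 32 kPa. Folds were -0.08, -0.23 and -0.54, with p of 0.911, 0.665 and 0.373 in the authors' deposited table. Tbx4 had the lowest top level of the 7 genes on both cultures, 4.04 on plastic and 4.27 on 32 kPa.

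Only 1 region was named for Tbx3 (Entrez 21386, chromosome 5), the very open promoter at chr5:119670274-119671079. Its level was 7.90 on plastic and 7.82 on 32 kPa, at or above 99.8% of all regions on plastic and 99.7% on 32 kPa. The fold was 0.08 (p = 0.75 in the authors' deposited table). The region is 806 bp wide, against a median width of 177 bp over all regions, and a wide region collects more reads.

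Tbx5 (Entrez 21388), the factor of this family best known from limb and heart, had no promoter region but had the largest folds in both directions among the T-box genes. The strongest region, 52.9 kb downstream of the start and beyond the gene (chr5:119887451-119887704), had 5.75 on plastic and 5.56 on 32 kPa and overlaps an endogenous retrovirus repeat, RLTR26_Mus of the ERVK class. A region in intron 8 of 8, 42.8 kb from the start, had 5.27 on plastic and 5.26 on 32 kPa, a fold of 0.01 (p = 0.992 in the authors' deposited table). Another region of the same intron, 40.9 kb from the start (chr5:119875459-119875701), had 3.89 on plastic and 4.61 on 32 kPa, a fold of -0.72 (p = 0.176 in the authors' deposited table). In intron 6 a CpG island region 10.5 kb from the start (chr5:119845082-119845240) had 4.42 on plastic and 3.63 on 32 kPa, a fold of 0.80 (p = 0.178 in the authors' deposited table). These intronic values point in opposite directions inside 1 gene and none passed the test. The region in intron 7 had 3.83 on plastic and 3.64 on 32 kPa, and the region 44.5 kb upstream had the lowest level of the 25 on plastic, 2.67 against 3.24 on 32 kPa.

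Foxf1 (Entrez 15227, chromosome 8), the Hedgehog-induced factor of lung mesenchyme that is also made by lung capillary endothelium, had 2 regions just upstream of its start. At 598 bp upstream (chr8:121083698-121083879) the level was 4.75 on plastic and 5 on 32 kPa, a fold of -0.25 (p = 0.555 in the authors' deposited table). At 87 bp upstream (chr8:121084206-121084392) it was 4.89 on plastic and 4.67 on 32 kPa, a fold of 0.22 (p = 0.618 in the authors' deposited table). The pair thus leaned in opposite directions, by amounts short of any threshold. The annotation placed the farther region in the promoter of Fendrr, the noncoding RNA gene next to Foxf1. Of the endothelial markers, Kdr and Tek had a promoter region, with levels per kb of 6.43 and 6.34 on plastic and of 6.49 and 5.76 on 32 kPa. The Foxf1 regions had 7.21 and 7.31 per kb on plastic and 7.46 and 7.09 on 32 kPa. Of the 8 endothelial markers, 0 had a region listed on 32 kPa and 2 on plastic, against 9.94% and 9.31% of all genes with a region. These were Kdr and Emcn, each at an intergenic region and not at a promoter (folds of 1.04 and 1.07 in the authors' deposited table). The Kdr region, 12 kb from the TSS, had 5.98 on plastic and 4.93 on 0.2 kPa. The Emcn region, 47.7 kb from the TSS, had 5.93 on plastic and 4.85 on 0.2 kPa. The Kdr promoter region itself had a level of 3.02 on plastic and 3.08 on 32 kPa and was not listed. These levels lay below the lowest listed ones, 4.94 on plastic and 4.97 on 32 kPa, so its absence shows nothing. The part of endothelial cells in the Foxf1 values was not tested, and 6 of the 8 endothelial markers had no promoter region.

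Foxf2 (Entrez 14238, chromosome 13), a relative of Foxf1, was open at its promoter (chr13:31625530-31625860, 121 bp upstream), the CpG-rich stretch printed above. The level was 4.72 on plastic and 4.78 on 32 kPa, a fold of -0.06 (p = 0.86 in the authors' deposited table). A weak region 6.85 kb downstream had 3.41 on plastic and 3.73 on 32 kPa (p = 0.642 in the authors' deposited table).

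The spread of folds in the table depended on the level, and the 7 genes followed the rest of it. Among all regions with a mean level of 3.5 to under 4, the 5th to 95th percentile of folds ran from -0.67 to 0.84, and at 5.5 to under 6 from -0.37 to 0.39. Of the 25 regions, 22 lay inside the 5th to 95th percentile of all regions in their own 0.5-wide step of level. The other 3 were the Tcf21 region 67.5 kb upstream (-0.82) and the Tbx5 regions 10.5 kb (0.80) and 40.9 kb (-0.72) downstream in the authors' deposited table. A fold beyond 0.5 in either direction was seen at 20% of the 25 and 23.2% of all regions.

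**Figure D3:**
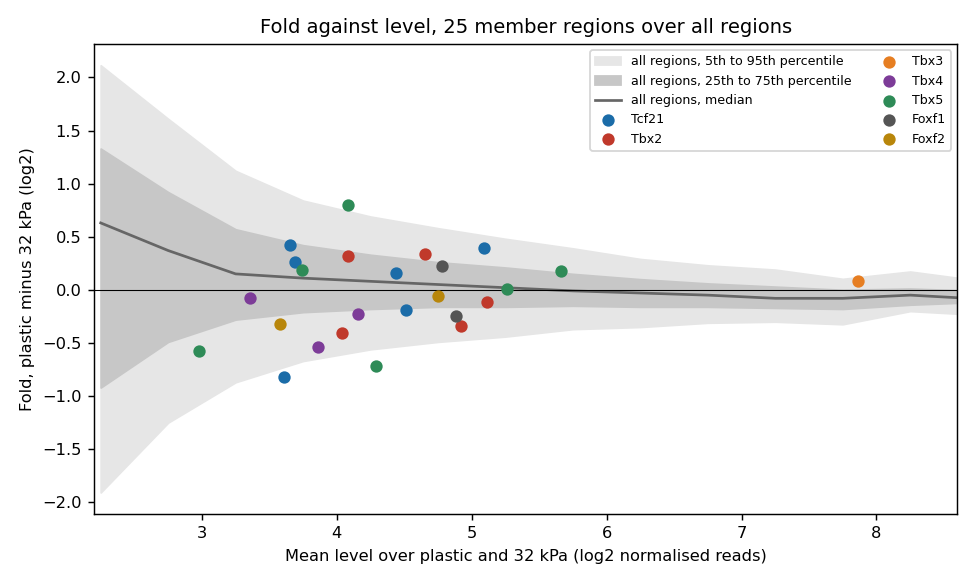
Log2 fold, plastic minus 32 kPa (y axis), against the mean level of both cultures in log2 normalised reads (x axis) for the 25 regions, coloured by gene, over the 5th to 95th and 25th to 75th percentiles and the median of all regions in steps of level. The band narrows to the right, and 3 points, all at mean levels under 5, lie outside its wider limits.

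Compared per length, the promoters of the 7 genes ranged widely. To allow for region width, the level was expressed as log2 normalised reads per kb, which still depends on the width called for each region. On this per-kb scale Tbx3 led with 8.21 on plastic and 8.13 on 32 kPa. The farther Foxf1 region had 7.21 on plastic and 7.46 on 32 kPa, and the nearer had 7.31 on plastic and 7.09 on 32 kPa. The Tcf21 region had 7.39 on plastic and 7 on 32 kPa, and the Tbx2 region 6.86 on plastic and 6.96 on 32 kPa. Foxf2 was last, with 6.32 on plastic and 6.38 on 32 kPa. Over 15268 regions within 1 kb of a TSS the per-kb median was 7.20 on plastic and 7.17 on 32 kPa, with interquartile ranges of 6.82 to 7.63 and 6.77 to 7.65. The Tbx3 region was at or above 90.6% of these on 32 kPa and the Foxf2 region at or above 8.38%. Tbx3 was first and Foxf2 last on both cultures, whereas Tcf21 was second on plastic and below both Foxf1 regions on 32 kPa. Whether neighbours in this order differ beyond the spread between libraries cannot be said without values per library.

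**Figure D4:**
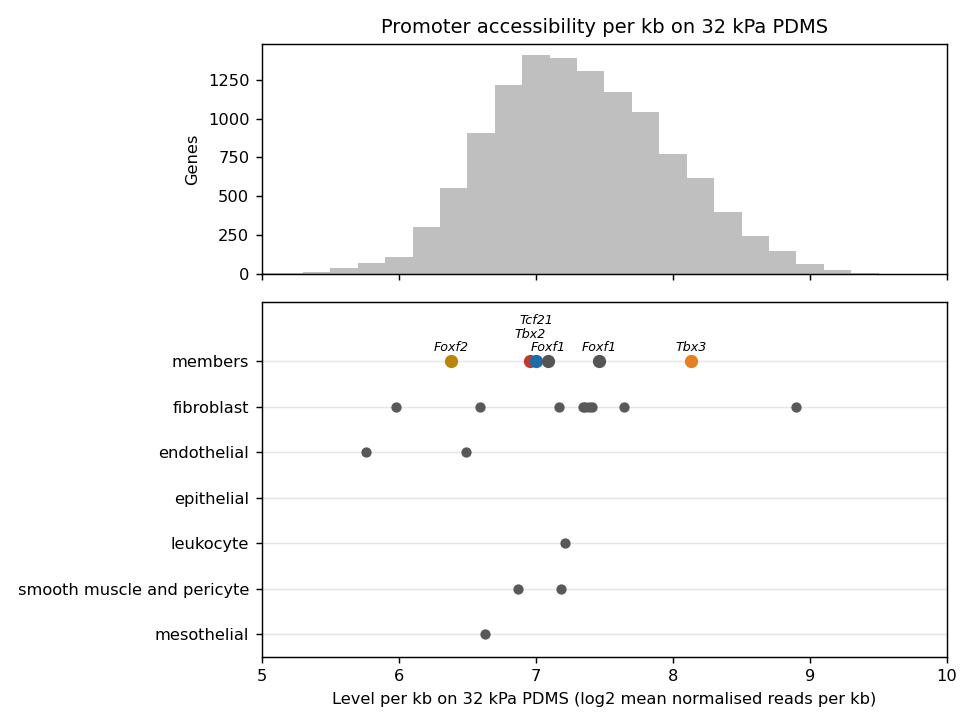
Top, number of genes (y axis) by the per-kb level of their strongest region within 1 kb of the TSS on 32 kPa PDMS (x axis, log2 mean normalised reads per kb). Bottom, on the same x axis, the 6 member regions within 1 kb of a TSS, and the markers of each cell type that have such a region; the epithelial row is empty, and Tbx3 at 8.13 and Foxf2 at 6.38 mark the ends of the member row.

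Against the soft surface, none of the 7 genes had a region listed as more accessible on a stiffer one. The tables against 0.2 kPa list only regions with a fold of at least 1 and an FDR of at most 0.05, all in 1 direction. They call their sides Control and Treat. At 643 intervals shared with the other table the Control level equalled the 32 kPa level, and at 653 it lay 0.01 to 0.02 above the plastic level, so Control was read as the stiffer culture. The lowest listed level on 32 kPa was 4.97, which 6 member regions of 4 genes reached. They were the Tbx3 promoter (7.82), the Tbx5 regions at 52.9 and 42.8 kb (5.56 and 5.26), the Tbx2 promoter (5.16) and the Tbx2 region at 16.7 kb (5.08), and the farther Foxf1 region (5). None of these 6 was listed as higher on 32 kPa, against 12.4% of the 17026 regions that reached that level. On plastic the lowest listed level was 4.94, which 5 member regions reached, namely the Tbx3 (7.90), Tcf21 (5.27) and Tbx2 (5.06) promoters and the same Tbx5 regions (5.75 and 5.27). None of the 5 was listed as higher on plastic, against 11.7% of 18002 regions. With so few regions able to be listed, 0 is close to what that background gives.

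Absence from these lists leaves smaller rises, falls on the stiffer culture and differences at the weaker regions unmeasured. No level on 0.2 kPa was in the tables for any of the 25 regions. For Foxf2 and Tbx4 no region reached the lowest listed level on either stiffer culture, so their loci lay below every listed region in level.

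By coordinate, 0 regions of either list lay within 100 kb of any of the 7 start sites. Among all genes with a region within 100 kb, 9.94% had 1 listed on 32 kPa and 9.31% on plastic, so 0 of 7 is near the background and is not a result about these genes. The nearest was the promoter of Foxc1, another forkhead gene of mesenchyme, 181 kb from the Foxf2 start, with 5.95 on plastic and 4.89 on 0.2 kPa (fold 1.06, FDR = 0.0165 in the authors' deposited table). On 32 kPa the nearest was an intergenic region 292 kb from the Foxf1 start, with 5.71 on 32 kPa and 4.71 on 0.2 kPa (fold 1, FDR = 0.0394 in the authors' deposited table). An intron of Eya4, 413 kb from Tcf21, had 5.44 on 32 kPa and 4.08 on 0.2 kPa (fold 1.36, FDR = 0.0195 in the authors' deposited table). The Bcas3 promoter, 480 kb from Tbx2, had 6.35 on plastic and 5.20 on 0.2 kPa (fold 1.15, FDR = 0.00352 in the authors' deposited table). The nearest listed regions to Tbx3 and Tbx5 were 366 and 530 kb away on plastic, and 840 and 676 kb away on 32 kPa.

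Because a region is named for its nearest start site, some DNA around the 7 genes carries other names. Within 100 kb of the start sites by coordinate lay 43 regions, of which 25 were named for the 7 genes and 18 for 12 others. Those 18 had levels of 2.43 to 6.09 on plastic and 3.15 to 6.15 on 32 kPa, and folds of -1.13 to 0.74 with p of at least 0.191 in the authors' deposited table. Between Tbx3 and Tbx5, which start 164 kb apart, lay a pair of regions named for Tbx3os2, with 4.06 and 4.20 on plastic and 4.05 and 4.26 on 32 kPa. Near Foxf1, a pair of regions upstream of Foxl1, 41.1 and 41.3 kb from the Foxf1 start, had 3.75 and 4.75 on plastic and 4.11 and 4.54 on 32 kPa. In a region named for Foxq1, 9667 bp from the Foxq1 start and 58 kb from Foxf2, the level was 2.43 on plastic and 3.56 on 32 kPa (p = 0.191 in the authors' deposited table).

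A minority of other genes of the same pathways had a listed region, at shares that were not tested against the rest. Set beside the same background of 9.94% on 32 kPa and 9.31% on plastic, of 28 measured genes of Hedgehog, Wnt, Bmp and Fgf signalling and of Tcf21's binding partners and relatives, 4 had a region listed on 32 kPa and 6 on plastic. These 28 genes held 119 regions, more per gene than the median of 2, which gives more chances to be listed. Gli3, a Hedgehog effector, was listed at its promoter with 6.65 on plastic and 5.61 on 0.2 kPa (fold 1.04, FDR = 0.00334 in the authors' deposited table). Gli3 was also listed at an intron with 5.61 on 32 kPa and 4.53 on 0.2 kPa (fold 1.08, FDR = 0.0392 in the authors' deposited table). The others on 32 kPa were Fgf7, Wnt5a and Tcf12, a partner of Tcf21 (folds of 1.45, 1 and 1.10 in the authors' deposited table). The others on plastic were Cdon, Bmpr2, Fgf7, Fgfr2 and Msc, the close relative of Tcf21 (folds of 1.02, 1.01, 1.41, 1.02 and 1.02 in the authors' deposited table).

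Of 44 measured genes for other mesenchyme transcription factors, with 199 regions, 5 were listed on 32 kPa and 7 on plastic. The background for all genes with a region was 9.94% on 32 kPa and 9.31% on plastic. These shares were not tested, and these genes too held more regions each than the median of 2, so the genes named below are examples only. The TALE homeobox gene Meis2 was listed at its promoter on both, with 6.79 on 32 kPa and 5.39 on 0.2 kPa (fold 1.40, FDR = 0.00116 in the authors' deposited table). On plastic Meis2 had 6.23, against 5.10 on 0.2 kPa (fold 1.12, FDR = 0.00884 in the authors' deposited table). These Meis2 intervals differ in extent between the comparisons, so the listed levels do not compare plastic with 32 kPa. Over a single interval measured on both, the fold, plastic minus 32 kPa, was -0.3 (p = 0.271 in the authors' deposited table). Foxp1 and Ebf2 were also listed on both stiffer cultures, Nr2f2 and Twist1 on 32 kPa, and those on plastic included Foxc1, Hoxb5 and Pbx3. Both comparisons share the 0.2 kPa libraries. Of the 7 other T-box genes with a region, none was listed, and in the test of plastic against 32 kPa 0 of these 119 and 199 regions passed, nor did any have an unadjusted p under 0.05 in the authors' deposited table.

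By levels on plastic and 32 kPa alone, many genes had promoters like those described. Over these 2 cultures and 11839 genes with a promoter region, the nearest to Tbx3 in Euclidean distance on the log2 levels were Ypel5 (0.041) and Rnf138 (0.045). Only these 2 genes lay within 0.05 of Tbx3, against 16 around Tcf21, 27 around Tbx2, 19 around the farther Foxf1 region and 23 around Foxf2. Of all regions, 274 had a mean level of 7.5 to under 8, where Tbx3 lies, and 6456 of 5 to under 5.5, where Tcf21 lies. The counts therefore follow how crowded each level is and do not set Tbx3 apart, and width was not matched. The nearest to Tcf21 were Gm14379 and Cplane1, to Tbx2 Sem1 and Sbno1, to Foxf1 Kcnj8 and Pi4kb, and to Foxf2 Mir5118 and Trim36.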

How the data were processed

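Tools listed in the submitters' processing notes were BWA, Picard, MACS2 and DiffBind, with the build mm10, without versions or settings. Per the file headers, the deposited levels are log2 means of normalised reads per region over the libraries of a culture, and each p-value and FDR was computed by the authors before deposition. Read shifting for the transposase, peak merging and scaling are not given in the sources used here. Gene names, annotations and distances were used as deposited. The 7 genes and the gene lists were chosen with earlier results of these data known.

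From the tables, regions were selected by gene name and distance (at most 100 kb), and the level per kb was the level minus log2 of the width in kb. Regions of different tables were matched at 50% of both lengths for the share of all regions listed, and by any overlap for regions of the 7 genes. Starts in the tables against 0.2 kPa lay 1 base below those of the other table at shared regions, so 1 was added. A repeated header row was dropped (1 row). The regions named were those nearest each TSS, strongest on 32 kPa, or with the largest folds, and listed regions, of which 1 gene is not reported here. Likeness named 2 genes per promoter. No model was fitted. Selection, overlap and motif search were tested on simulated data. Python 3.11.15, pandas 2.3.3, numpy 2.4.6 and matplotlib 3.10.9 were used.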

Additional observations from a re-analysis of the deposited data

How the results depend on the processing

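With a window of 10 kb 7 regions remained of the 25 and with 50 kb 21. The counts of 0 (listed against 0.2 kPa, or past the FDR between plastic and 32 kPa) were also 0 with no window and, between plastic and 32 kPa, with an unadjusted p of 0.05. Narrower windows and an FDR of 0.01 could not raise a count of 0, nor could an FDR of 0.1 where every FDR is 1, so these say nothing of stability. The median fold of -0.06 was 0.01 for promoters and 0.01 for mean levels of at least 4, -0.11 after centring on all regions, -0.015 as a median over genes and -0.06 over all regions within 100 kb by coordinate, an alternative chosen after seeing the data, so its sign is not settled. The Tcf21 median fold of 0.21 was 0.39 with windows of 10 or 50 kb. The window of 10 kb left only its promoter, and that of 50 kb also left the regions 17.1 kb upstream and 42.0 kb downstream. Medians of the other genes moved by at most 0.1. No paired analysis was possible because the tables hold 1 mean per culture; for the same reason leaving out each replicate was not run. No member region was listed, so no level on 0.2 kPa could be read. Unknown depth limits what the levels of weak regions can show.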

Other observations

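Within the list of other mesenchyme transcription factors, high promoter levels per kb were seen at a homeobox gene, an early B-cell factor gene and a forkhead gene, among others. Meis1 had 8.19 on plastic and 8.06 on 32 kPa in log2 normalised reads per kb, Ebf2 had 8.04 on plastic and 8.02 on 32 kPa, and Foxo3 had 7.81 on plastic and 7.92 on 32 kPa. These stand beside 8.21 on plastic and 8.13 on 32 kPa for Tbx3. Such levels are not particular to these genes. Outside that list, the fibroblast marker Vim had 9.01 on plastic and 8.9 on 32 kPa. No test bears on the order. Markers of several other cell types had a region listed against 0.2 kPa, beside 9.94% of all genes with a region on 32 kPa and 9.31% on plastic. On 32 kPa these were 2 of 5 mesothelial genes, Wt1 (folds of 1.43 and 1.09) and Upk3b (1.57), and 0 of the epithelial, leukocyte, endothelial and smooth muscle and pericyte genes in the authors' deposited table. On plastic they were the mesothelial genes Wt1 (1.12) and Krt19 (1.08), Krt8 of 7 epithelial genes with a region (1.04), Myh11 of 6 smooth muscle and pericyte genes (1.13), Emcn and Kdr of 8 endothelial genes (1.07 and 1.04) and 0 of 4 leukocyte genes with a region in the authors' deposited table. Of 10 fibroblast genes, 2 were listed on 32 kPa and 2 on plastic.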
